A study of Homo sapiens with 8 samples.

Results

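The SOX transcription factors share a DNA-binding domain, the HMG box, and fall into groups by the similarity of their sequences. 10 of them were followed here: SOX2 and SOX3 of the SOXB1 group, SOX4, SOX11 and SOX12 of the SOXC group, SOX5 and SOX6 of the SOXD group, and SOX8, SOX9 and SOX10 of the SOXE group. They were taken by gene symbol and make up 10 of the 60668 genes in the deposited count files. The members were taken by name, with earlier results of these data known. The data are RNA-Seq libraries of polyA+ RNA from D283 MED, an established human cell line derived from a medulloblastoma, a childhood tumour of the cerebellum. All 8 cultures were D283-OMO cells, a hygromycin-selected population with a lentiviral, doxycycline (DOX)-inducible transgene for FLAG-tagged OMOMYC, a dominant-negative mini-protein derived from MYC. In OMO (4 libraries) no DOX was given, and in OMO+DOX (4 libraries) the cells were treated with DOX for 72 h. The comparison asks how inhibition of MYC function changes the RNA of these cells, and since both groups carry the transgene and no DOX-treated cells without it are among the libraries, effects of DOX and of OMOMYC cannot be told apart.

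SOX factors act in combinations that change as a neural cell matures. SOXB1 proteins keep neural progenitors undifferentiated, SOXC proteins act in neuronal precursors and support the neuronal programme, and SOXE proteins direct glial, neural crest and cartilage fates. SOXD proteins lack a transactivation domain of their own and work beside SOXE proteins in cartilage and glia. In the cerebellum, SOX9 marks progenitor and glial cells and SOX4 and SOX11 mark young neurons.

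Total counts per library ranged from 38390696 to 54020506. Levels are given as CPM, counts relative to a library size adjusted by TMM factors from edgeR. Where genes are compared with each other, they are given as CPM per kb of exon. Such levels are relative, and the libraries do not give amounts of RNA per cell. A gene was tested when it exceeded 1 CPM in at least 4 libraries, and log2 fold changes (log2FC) are OMO+DOX over OMO, with p-values from edgeR's quasi-likelihood test adjusted by Benjamini-Hochberg over the 15222 genes tested. CAD and NCL, 2 established targets of MYC, fell with DOX by 0.48 and 0.44 on the log2 scale. Over all genes tested the median absolute log2FC was 0.43, and 38.1% were lower at an edgeR adjusted p below 0.05. MYC itself stood at 939 ± 75.6 CPM in OMO and 1123 ± 56.8 CPM in OMO+DOX (SD, n = 4), and reads of the OMOMYC transgene cannot be told apart from reads of MYC. All 8 markers of group 3 medulloblastoma that were examined passed the filter on low counts.

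6 of the 10 SOX genes were tested, and all 6 changed at an adjusted p below 0.05: SOX6, SOX8 and SOX11 rose, and SOX4, SOX9 and SOX12 fell. At the same threshold 76.6% of all genes tested changed (38.5% higher and 38.1% lower with DOX), so the count alone does not set these genes apart. At the study's thresholds, an adjusted p below 0.001 and an absolute log2FC above 2, SOX11 was higher and SOX9 lower. Those thresholds were passed by 7.12% of all genes, 4.38% higher and 2.75% lower. The OMO and OMO+DOX libraries did not overlap for 5 of the 6, all but SOX6, compared with 71.7% of all genes tested. The median log2FC of the 6 was -0.24, beside 0.01 for all genes tested. SOX2, SOX3, SOX5 and SOX10 did not pass the filter and are described apart.

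**Figure D1:**
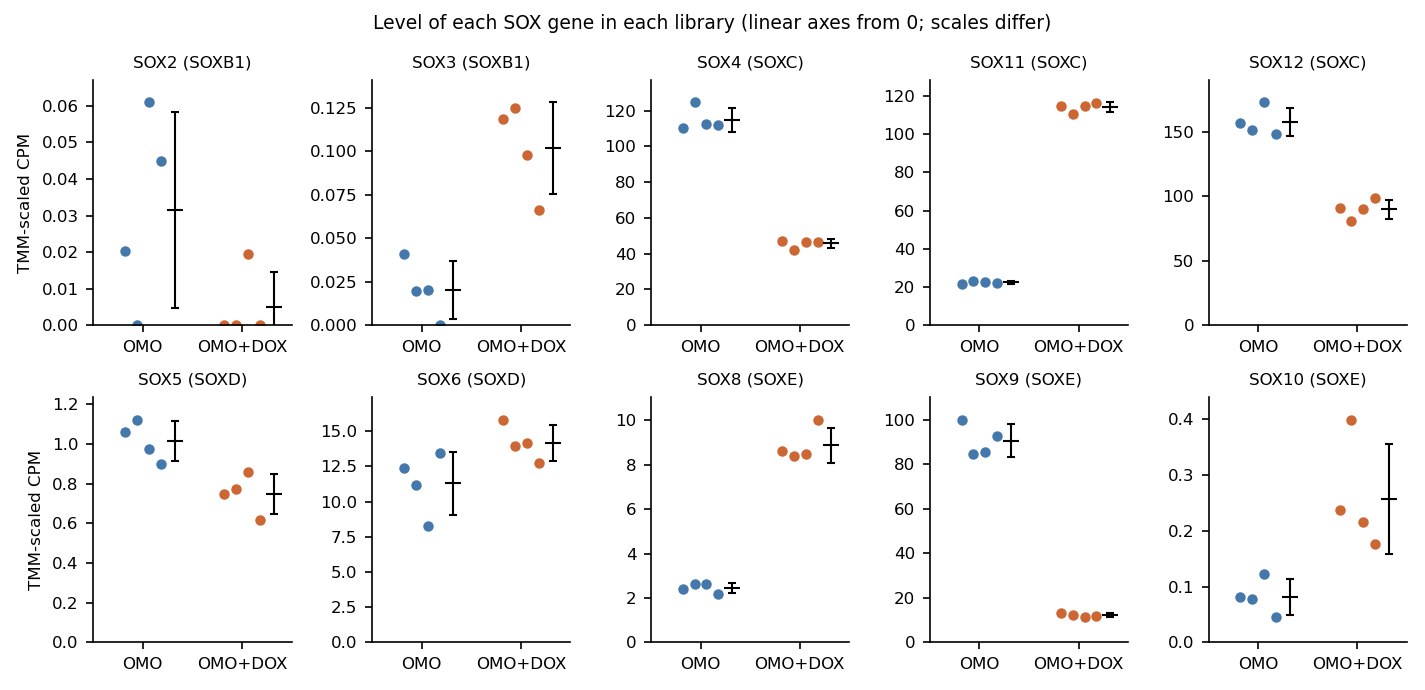
TMM-scaled CPM of each of the 10 SOX genes (vertical axes from 0, with a scale of their own in each panel) in the 4 OMO and 4 OMO+DOX libraries. Points are libraries, and the black marks are the mean ± SD. SOX4, SOX12 and SOX9 lie lower in every OMO+DOX library, SOX11 and SOX8 higher in every one, SOX6 overlaps, and SOX2, SOX3 and SOX10 stay below 0.4 CPM.

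The SOXC genes moved in opposite directions. SOX11, which acts in newly formed neurons, gave 21.8, 22.9, 22.7 and 22.01 CPM in the OMO libraries and 115, 111, 115 and 117 CPM in the OMO+DOX libraries. Every treated library thus had several times the SOX11 CPM of any untreated one, and the spread within each group was small. The rise was 5.11-fold, a log2FC of 2.35 (SE 0.04, edgeR adjusted p = 1.29e-12). SOX11 (ENSG00000176887.7) is a gene of 1 exon on chromosome 2 (GRCh38, bases 5692667 to 5701385, plus strand).

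SOX4, a close relative of SOX11 that supports the survival and maturation of neuronal precursors, fell. Its libraries gave 110.3, 125, 112 and 112 CPM in OMO and 47.4, 42.2, 46.8 and 46.5 CPM in OMO+DOX. All treated libraries lay below all untreated ones, and OMO replicate 2 lay above the other untreated libraries. The fall was 2.51-fold, a log2FC of -1.33 (SE 0.06, edgeR adjusted p = 1.20e-09). SOX4 (ENSG00000124766.7) also has 1 exon, on the plus strand of chromosome 6 from 21592768 to 21598619, of which 168 bases are shared with exons of an antisense gene.

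SOX12, the weakest activator of the SOXC group, had the highest level of the 10 genes per kb of exon and fell as well. The OMO libraries gave 157, 151, 173 and 149 CPM and the OMO+DOX libraries 90.7, 80.7, 90.0 and 98.3 CPM. The groups did not overlap, and the lowest untreated library exceeded the highest treated one by more than the untreated libraries differed among themselves. The fall was 1.75-fold (log2FC -0.81, SE 0.07, edgeR adjusted p = 5.14e-07). SOX12 (ENSG00000177732.8) lies on the plus strand of chromosome 20 from 325595 to 330224, and no exon of another gene overlaps its own.

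Since MYC, with its partner MAX, binds the E-box CACGTG and the related CACGCG, these motifs were looked for on both strands of the promoters that RefSeq gives for the SOX genes on GRCh38.p14, from 250 bases before the start to 50 after it. CACGTG reads the same on both strands, and CACGCG differs from it at 1 base. Of 35116 promoters, 7.26% hold CACGTG and 11.4% hold CACGCG. An entry was matched for 6 of the 10 SOX genes (SOX2, SOX3, SOX4, SOX5, SOX6 and SOX12). None of these windows holds CACGTG, and CACGCG occurs in those of SOX4 and SOX5. The stretches around the motif, and the 250 bases before the start of SOX12, which hold neither motif, are shown to set the promoters of 2 falling SOXC genes side by side, with the motif in capitals.
SOX4 (chr6:21593592-21593621, plus strand): agcttctcattgCACGCGgagattattatt
SOX5 (chr12:24562491-24562520, minus strand): gagagagagggaCACGCGcgcgcacacaca
SOX12 (chr20:325302-325551, plus strand): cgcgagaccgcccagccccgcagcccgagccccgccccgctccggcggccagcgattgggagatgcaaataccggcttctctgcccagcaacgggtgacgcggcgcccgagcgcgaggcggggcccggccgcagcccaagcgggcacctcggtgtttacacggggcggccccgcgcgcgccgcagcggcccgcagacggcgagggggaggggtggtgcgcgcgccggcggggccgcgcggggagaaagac
The motif begins at position -147 from the RefSeq start in SOX4 and at -17 in SOX5. A match describes the letters only, and binding was not measured in these libraries. The RefSeq window of SOX4 lies inside the longer SOX4 exon of GENCODE 29. The SOX12 window is 80.3% G and C and that of SOX4 49.3%.

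The makeup of the SOXC group changed along with its total. Per kb of exon, the summed level of SOX4, SOX11 and SOX12 was 56.2 ± 2.28 CPM per kb in OMO and 40.3 ± 2.17 CPM per kb in OMO+DOX (SD, n = 4). SOX11 made up 4.57% ± 0.13 of that sum in OMO and 32.5% ± 1.09 in OMO+DOX. The share of SOX4 went from 35.0% ± 2.22 to 19.4% ± 0.52, and that of SOX12 from 60.4% ± 2.33 to 48.1% ± 1.35. Ratios of counts within a library do not depend on how libraries are scaled, and 8 pairs of genes within SOX groups were compared by a two-sided exact permutation test, for which 4 against 4 libraries allow no p below 0.0286. The log2 ratio of SOX11 to SOX4 was -2.34, -2.44, -2.31 and -2.35 in the OMO libraries and 1.28, 1.39, 1.30 and 1.33 in the OMO+DOX libraries. The ratio was narrow within each group, and every treated library lay far above every untreated one. The difference was 3.68 (SE 0.04, exact p = 0.0286, adjusted over the 8 pairs p = 0.0327). SOX11 against SOX12 shifted by 3.16 (SE 0.06) with the same exact p. SOX11 lay higher and SOX4 and SOX12 lower in every treated library. The p-values of these 2 ratios were thus bound to be the lowest possible and add no support to the separate changes. SOX4 and SOX12 both fell, but not equally: their log2 ratio, SOX12 over SOX4, was 0.45 ± 0.15 in OMO and 0.97 ± 0.07 in OMO+DOX, a difference of 0.52 (SE 0.08, exact p = 0.0286).

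**Figure D2:**
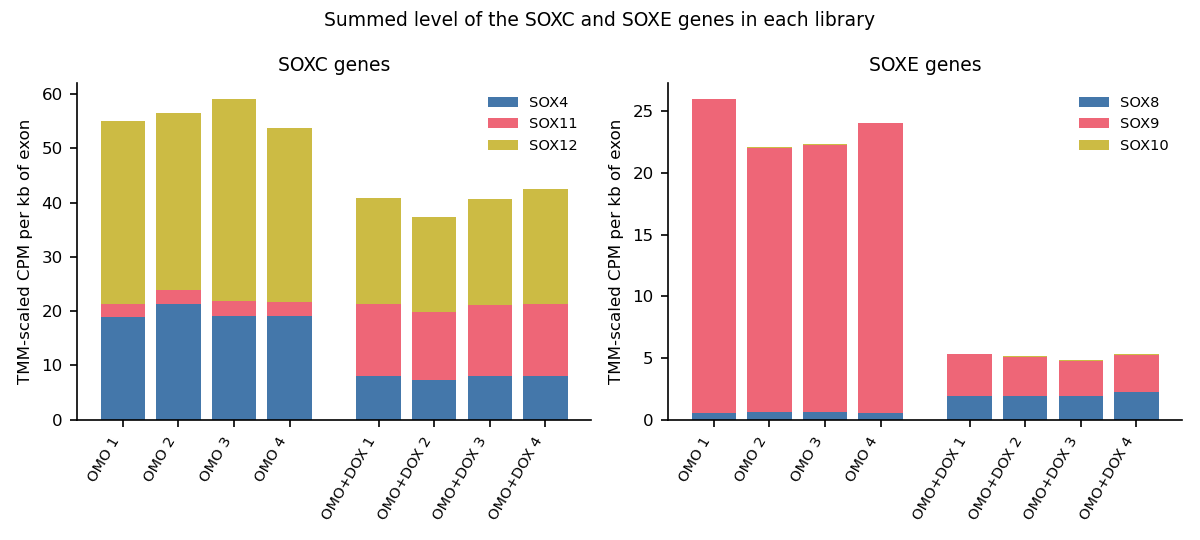
Summed level of the SOXC genes (left) and the SOXE genes (right) in each library, in TMM-scaled CPM per kb of exon, stacked by gene. SOX11 is a thin band in the OMO bars and 31.4% to 34.0% of the OMO+DOX bars, and the SOXE bars, nearly all SOX9 in OMO, are shorter and divided between SOX9 and SOX8 in OMO+DOX.

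Among the SOXE genes, SOX9 had the largest fall of the 6 tested members. SOX9 governs glial fate and the maintenance of neural stem cells, and in cartilage the collagen genes. Its level was 100.1, 84.5, 85.4 and 92.6 CPM in the OMO libraries and 13.2, 12.4, 11.2 and 11.8 CPM in the OMO+DOX libraries. The groups were far apart, with every treated library below the lowest untreated one. The fall was 7.45-fold, a log2FC of -2.90 (SE 0.07, edgeR adjusted p = 1.52e-11), and 535 of the 15222 genes tested had a larger absolute log2FC. SOX9 (ENSG00000125398.8) lies on the plus strand of chromosome 17 from 72121020 to 72126420, inside the span of SOX9-AS1 on the other strand, with which it shares no exonic base.

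SOX8, which overlaps in function with SOX9 and SOX10 in glia and neural crest, rose from a low level. It gave 2.39, 2.61, 2.62 and 2.17 CPM in OMO and 8.62, 8.40, 8.47 and 10.04 CPM in OMO+DOX. No treated library overlapped an untreated one, and OMO+DOX replicate 4 was above the other treated libraries. The rise was 3.62-fold (log2FC 1.85, SE 0.10, edgeR adjusted p = 6.54e-09). SOX8 (ENSG00000005513.10) is on the plus strand of chromosome 16 from 981808 to 986979.

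SOX10, the factor of oligodendrocytes, Schwann cells and melanocytes, was close to the detection limit. Its counts were 4, 4, 6 and 2 in OMO and 12, 16, 11 and 8 in OMO+DOX. The groups did not overlap. A fit of all 36881 genes without the filter on low counts, in which 41.3% of genes had an adjusted p below 0.05, gave SOX10 a log2FC of 1.57 (SE 0.44, edgeR adjusted p = 0.00413). The ratio of the summed counts was 3.05, with an exact 95% interval of 1.70 to 5.76 that covers counting error only, since amplified reads that carry no molecular identifier can stem from 1 molecule. SOX10 (ENSG00000100146.17, chromosome 22, bases 37970686 to 37987422, minus strand) shares 89 exonic bases with POLR2F on the other strand, a gene at 17.6 ± 2.08 CPM in OMO and 22.3 ± 1.81 CPM in OMO+DOX (log2FC 0.34, SE 0.08, edgeR adjusted p = 0.00319). Whether counting used the strand of the reads is not stated, so the origin of so few SOX10 reads cannot be told apart from that gene.

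The summed level of the SOXE genes was 23.6 ± 1.82 CPM per kb in OMO and 5.16 ± 0.24 CPM per kb in OMO+DOX. SOX9 made up 97.5% ± 0.38 of the sum in OMO and 59.8% ± 2.63 in OMO+DOX, and SOX8 2.36% ± 0.35 and 38.8% ± 2.95. SOX9 remained the most abundant SOXE gene in every treated library, at a lowest share of 56.5%. The log2 ratio of SOX8 to SOX9 counts differed by 4.75 between the groups (SE 0.14, exact p = 0.0286, adjusted p = 0.0327), and that of SOX10 to SOX9 by 4.44 (SE 0.36) with the same p. SOX8 and SOX10 lay higher and SOX9 lower in every treated library, so these p-values too were fixed in advance. The log2 ratio of SOX8 to SOX10 differed by 0.31 (SE 0.35, exact p = 0.457), less than the spread between libraries, and the low counts of SOX10 leave room for unequal changes.

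**Figure D3:**
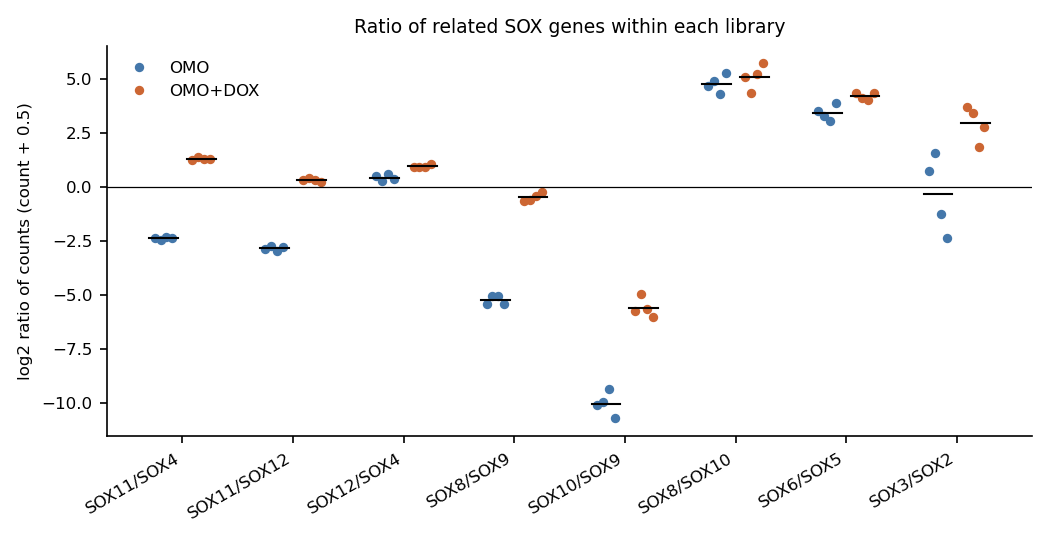
Log2 ratio of the counts of 2 SOX genes of the same group in each library, after adding 0.5 to each count. Points are libraries, and black lines are group means. OMO and OMO+DOX separate for all pairs but SOX8/SOX10, and SOX3/SOX2, the pair with the lowest counts, scatters most.

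The SOXD genes SOX6 and SOX5 changed less than the tested SOXC and SOXE genes. SOX6, which works beside SOX9 in cartilage and delays oligodendrocyte maturation, gave 12.4, 11.1, 8.27 and 13.4 CPM in OMO and 15.8, 13.9, 14.2 and 12.8 CPM in OMO+DOX. The groups overlapped, OMO replicate 3 was the lowest library, and OMO+DOX replicate 4 lay below OMO replicate 4. The log2FC was 0.33 (SE 0.13, edgeR adjusted p = 0.0341). It was 0.20 without OMO replicate 3, and the adjusted p rose to 0.0694 without OMO replicate 2, and to 0.102, 0.0605 and 0.0628 without OMO+DOX replicates 1, 2 and 3. SOX6 shares 219 exonic bases with C11orf58 on the other strand, a gene at 193 ± 3.18 and 189 ± 7.79 CPM in OMO and OMO+DOX (log2FC -0.03). SOX6 (ENSG00000110693.18) spans chromosome 11 from 15966449 to 16739591 on the minus strand.

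SOX5, its partner in the same pathways, was near the filter, passing 1 CPM in 2 libraries. It gave 1.06, 1.12, 0.976 and 0.896 CPM in OMO and 0.749, 0.773, 0.860 and 0.616 CPM in OMO+DOX, from 28 to 58 counts per library. All 4 treated libraries lay below the lowest untreated one. SOX5 (ENSG00000134532.18) spans chromosome 12 from 23529500 to 24562544 on the minus strand. In the fit without a filter the log2FC was -0.46 (SE 0.19, edgeR adjusted p = 0.0556), which did not pass the threshold. The ratio of summed SOX5 counts, OMO+DOX over OMO, was 0.74, with an exact 95% interval of 0.59 to 0.92 that covers counting error only. The ratio of SOX6 to SOX5 counts was higher with DOX by 0.78 on the log2 scale (SE 0.19, exact p = 0.0286, adjusted p = 0.0327).

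The SOXB1 genes were nearly silent. SOX2, a defining factor of neural stem cells, had 1, 0, 3 and 2 counts in OMO and 0, 0, 1 and 0 in OMO+DOX. SOX2 (ENSG00000181449.4) lies on chromosome 3 from 181711924 to 181714436 on the plus strand. No library exceeded 3 counts, the level treated as the limit that a count of 0 allows, and no fold change is given. SOX3 had 2, 1, 1 and 0 counts in OMO and 6, 5, 5 and 3 in OMO+DOX. SOX3 (ENSG00000134595.8) lies on chromosome X from 140502985 to 140505116 on the minus strand. Every treated library held more SOX3 reads than any untreated one, and the ratio of summed counts, 19 over 4 at scaled depth, was 4.93 with an exact 95% interval of 1.64 to 19.9. That interval covers counting error only. No OMO library exceeded 3 counts of SOX3, and set against that limit the mean rise was at least 1.64-fold. The fit without a filter, in which 41.3% of genes were below 0.05, gave SOX3 an adjusted p of 0.0174 by edgeR. The log2 ratio of SOX3 to SOX2 differed by 3.27 (SE 0.98), a value set largely by the 0.5 added to counts near 0. SOX2-OT, the noncoding gene in whose span SOX2 lies, had 7 to 12 counts in OMO and 6 to 11 in OMO+DOX.

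Ranked by level per kb of exon in OMO, the order was SOX12 at 34.0, SOX9 at 23.0, SOX4 at 19.6, SOX11 at 2.56, SOX6 at 0.576, SOX8 at 0.553, SOX5 at 0.0971, SOX10 at 0.0220, SOX2 at 0.0126 and SOX3 at 0.00944 CPM per kb. Neighbours in that order overlapped between libraries for SOX6 and SOX8, SOX10 and SOX2, and SOX2 and SOX3. The exons of SOX6 add up to 19636 bases and its longest transcript to 8865. By the latter SOX6 stood at 1.28 CPM per kb, its lowest library, at 0.933, above the highest of SOX8, at 0.631. In OMO+DOX the order was SOX12 at 19.4, SOX11 at 13.1, SOX4 at 7.81, SOX9 at 3.09, SOX8 at 2.003, SOX6 at 0.722, SOX5 at 0.0718, SOX10 at 0.0692, SOX3 at 0.0477 and SOX2 at 0.00194 CPM per kb. There the overlapping neighbours were SOX5 and SOX10, and SOX10 and SOX3. SOX12 led in both states, SOX11 went from the fourth place to the second, and SOX9 from the second to the fourth. Over all 10 genes the summed level was 80.5 ± 1.75 CPM per kb in OMO and 46.3 ± 2.21 CPM per kb in OMO+DOX.

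9 further SOX genes were looked up, of which 3 were tested and all 3 changed, 2 higher and 1 lower with DOX, where 76.6% of all genes tested changed. SOX21, a SOXB2 gene whose protein represses targets of SOXB1 proteins, gave 35.1, 46.3, 42.6 and 39.2 CPM in OMO and 6.96, 6.21, 7.02 and 6.58 CPM in OMO+DOX. Its groups were far apart and its fall passed the study's thresholds (6.08-fold, log2FC -2.61, SE 0.09, edgeR adjusted p = 1.91e-10). SOX7, a SOXF gene known from blood vessels, rose from 92.4 ± 0.87 to 148 ± 4.89 CPM (log2FC 0.68, SE 0.04, edgeR adjusted p = 3.23e-08). It shares 1268 exonic bases with PINX1 on the same strand, and its expected counts were whole numbers in 1 of 8 libraries, so part of them was divided between genes. PINX1 fell by 0.60 on the log2 scale. SOX13, the remaining SOXD gene, rose from 19.7 ± 0.34 to 24.3 ± 1.22 CPM (log2FC 0.31, SE 0.05, edgeR adjusted p = 1.34e-04). SOX1, SOX14, SOX15, SOX17, SOX18 and SOX30 did not pass the filter, and SOX1, SOX14 and SOX17 had at most 3 counts in every library.

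Of 12 noncoding genes at SOX loci, 11 were found and 2 were tested, SOX9-AS1 and SOX21-AS1. Both were lower with DOX, beside 38.1% of all genes tested. SOX9-AS1, antisense to SOX9, stood at 1.37 ± 0.09 CPM in OMO and 0.101 ± 0.043 CPM in OMO+DOX (log2FC -3.72, SE 0.22, edgeR adjusted p = 2.45e-08), from 61.16 to 70.27 counts in OMO and 3 to 7 in OMO+DOX. SOX21-AS1, which starts beside SOX21 and runs the other way, went from 10.7 ± 1.24 to 2.94 ± 0.07 CPM (log2FC -1.86, SE 0.09, edgeR adjusted p = 5.84e-09). SOX9-AS1 exceeded 1 CPM in the 4 OMO libraries and in no other, so it passed the filter through the group where it was high, and its call does not count as support. Neither gene shares an exonic base with the SOX gene beside it. CASC15, at the SOX4 locus, moved against SOX4: it had 3, 5, 4 and 4 counts in OMO and 21, 14, 17 and 17 in OMO+DOX (log2FC 2.10 in the fit without a filter, edgeR adjusted p = 2.15e-05). In that fit 41.3% of genes had an adjusted p below 0.05.

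**Figure D4:**
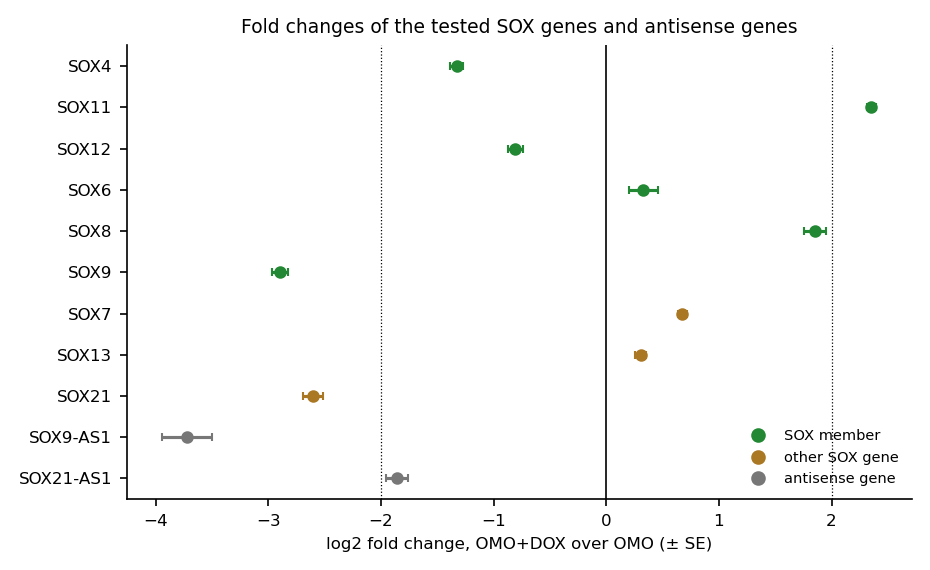
Log2 fold change (OMO+DOX over OMO, ± SE) of the tested SOX genes and of the tested antisense genes at SOX loci, with dotted lines at -2 and 2. SOX11 lies above 2, SOX9, SOX21 and SOX9-AS1 lie below -2, and SOX6 and SOX13 lie closest to 0.

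SOX proteins bind DNA beside partner factors, and 9 of 12 such partners were tested. PAX6 and POU3F3 passed the filter only through the OMO+DOX libraries, where they were high. Of the other 7, 3 rose and 4 fell, with a median log2FC of -0.22, beside 0.01 for all genes tested, of which 76.6% changed. The 2 largest rises of the 9 were those of PAX6 and POU3F3. PAX6, a partner of SOX2 in the eye and neural progenitors, rose from 0.153 to 52.9 CPM (log2FC 8.40, SE 0.12). POU3F3, a POU factor of neural cells, rose from 0.239 to 65.2 CPM (log2FC 8.06, SE 0.14). The largest rise of the other 7 was that of POU3F2, from 7.06 to 67.8 CPM (log2FC 3.26, SE 0.05). NFIB, a nuclear factor of glial development, fell by 0.73 and POU3F1 by 0.62 on the log2 scale. The fall of NFIX was not called with library size only (log2FC -0.09, edgeR adjusted p = 0.152). PAX3 and POU3F4 had no counts.

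Known targets of SOX proteins moved in both directions, and their counts stand beside 38.5% of all genes tested that were higher and 38.1% that were lower. Of 7 SOXC targets, 6 were tested, 3 rose and 3 fell, with a median log2FC of -0.34. MAP2, a microtubule protein of neurites, rose from 1.95 to 14.7 CPM (log2FC 2.91, SE 0.11), and TUBB3, the neuronal tubulin that SOX4 and SOX11 activate, from 1.86 to 3.08 CPM (log2FC 0.73, SE 0.10). DCX, a protein of migrating neurons, fell from 16.7 to 4.31 CPM (log2FC -1.96, SE 0.10), and NEUROD1, a factor of neuronal differentiation, from 94.4 to 20.2 CPM (log2FC -2.23, SE 0.05). Of 8 SOXB1 targets, 5 were tested, 3 rose and 1 fell, with a median of 0.47. NES, the progenitor filament nestin, rose from 59.8 to 225 CPM (log2FC 1.91, SE 0.05) and CDH2, N-cadherin, from 50.9 to 364 CPM (log2FC 2.84, SE 0.06). GLI2 fell by 0.80 on the log2 scale. The part of SOX proteins in the changes of these targets was not tested.

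Of 10 cartilage targets of SOXE and SOXD proteins, 6 were tested, 3 rose and 1 fell, with a median of 0.47. COL2A1, the collagen gene that SOX9 activates in cartilage, fell with SOX9 from 218 to 33.3 CPM (log2FC -2.71, SE 0.08). COL9A1, from 1.12 to 6.13 CPM (log2FC 2.45, SE 0.14), and COL11A1, from 95.6 to 261 CPM (log2FC 1.45, SE 0.06), collagen genes of the same programme, rose. Of 12 glial and neural crest targets of SOXE proteins, 4 were tested, 2 rose and 2 fell, with a median of 0.15. DCT, a pigment gene, fell from 256 to 5.36 CPM (log2FC -5.58, SE 0.09) and PMP22, a membrane protein of Schwann cells, from 11.9 to 8.64 CPM (log2FC -0.46, SE 0.07). MITF, the pigment cell factor that SOX10 activates, rose from 8.66 to 47.9 CPM (log2FC 2.47, SE 0.07), and ERBB3 rose by a log2FC of 0.76 (SE 0.10). All the changes named in these lists passed an adjusted p of 0.05 by edgeR and were without overlap between the groups.

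Markers of cell states were counted in the same way, beside the 76.6% of all genes tested that changed. Of the 8 group 3 medulloblastoma markers, 6 fell and 2 were called higher, with a median of -2.16. Without MYC, whose reads cannot be told apart from those of the transgene and whose groups overlapped, their summed level went from between 2211 and 2424 CPM in OMO to between 721 and 740.2 CPM in OMO+DOX. NRL fell by 3.55 on the log2 scale and IMPG2 fell by 3.01. MYC and EYS were the 2 called higher, EYS with a log2FC of 0.23 (SE 0.09, edgeR adjusted p = 0.0460). The call of EYS was lost in 7 of 8 fits with a library left out (adjusted p by edgeR 0.0506 to 0.104), all but the one without OMO replicate 2, and its log2FC was 0.12 without OMO replicate 3. Of 10 neuronal markers, 8 were tested, 4 rose and 3 fell, with a median of 0.36. Their sum went from between 131 and 136 to between 380 and 395 CPM, most of it through NEFL, and from between 85.8 and 91.7 to between 98.6 and 103 CPM without that gene. The fall of SYP was not called with library size only (log2FC -0.05, edgeR adjusted p = 0.300). ELAVL3, a neuronal RNA-binding protein, rose from 0.943 ± 0.171 CPM in OMO to 21.4 ± 0.790 CPM in OMO+DOX, a log2FC of 4.51. It passed the filter mainly through the OMO+DOX libraries, where it was high, so its call does not count as support. SNAP25, a synaptic protein, fell by 0.60, and ELAVL4 had no counts. Of 7 astrocytic markers, 3 were tested and called lower, with a median of -1.03. On the log2 scale SLC1A3 fell by 1.604 and GJA1 fell by 1.03. The groups of SLC1A2, the remaining one, overlapped, and its call was lost with library size only (edgeR adjusted p = 0.209) and in 4 fits, those without OMO replicate 1 or 4 or OMO+DOX replicate 3 or 4 (0.0824 to 0.0963). Untested markers went both ways at low counts. AQP4 had 3, 2, 1 and 2 counts in OMO and 8, 8, 9 and 4 in OMO+DOX. GFAP, the defining astrocytic filament, had 33.57, 7.23, 8.22 and 8.2 counts in OMO and 3.67, 7.56, 1 and 0 in OMO+DOX. The astrocytic sum went from between 189 and 209 to between 87.2 and 97.3 CPM.

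Of 7 oligodendrocyte lineage markers, 3 were tested, 1 rose and 2 fell, with a median of -0.20. The groups of PDGFRA, the 1 called higher (log2FC 0.54), overlapped. Its call was lost without OMO+DOX replicate 3 or 4 (edgeR adjusted p = 0.0619 and 0.0650). OLIG2 fell by 0.72 on the log2 scale and CSPG4 fell by 0.20, though with library size only CSPG4 was not called (log2FC -0.07, edgeR adjusted p = 0.315). MOG and MAG, genes of myelin, had no counts, and MBP, another, had 3.17 to 6 counts in OMO and 7 to 12 in OMO+DOX. OLIG1, also untested, had 21, 25, 38 and 17 counts in OMO and 5, 2, 2 and 0 in OMO+DOX. The sum of these markers went from between 57.9 and 64.4 to between 46.4 and 55.1 CPM. Of 6 melanocytic markers, 2 were tested, MITF higher and DCT lower, with sums of 247 to 306 and 51.6 to 57.7 CPM. The fall of that sum was set by DCT, from 256 to 5.36 CPM, while MITF rose from 8.66 to 47.9 CPM. Some lists share genes, so their counts are not independent. MITF and DCT are also glial and neural crest targets of SOXE proteins, and MITF is also a partner. DCX, TUBB3, MAP2 and STMN2 are both SOXC targets and neuronal markers. Of 7 blood, vessel and fibroblast markers, 2 were tested and VWF fell by 1.39, with sums of 26.0 to 26.8 and 22.4 to 26.9 CPM. The part of these shifts in the SOX values was not tested, and in bulk RNA fewer cells of a type and less RNA per cell cannot be told apart.

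**Figure D5:**
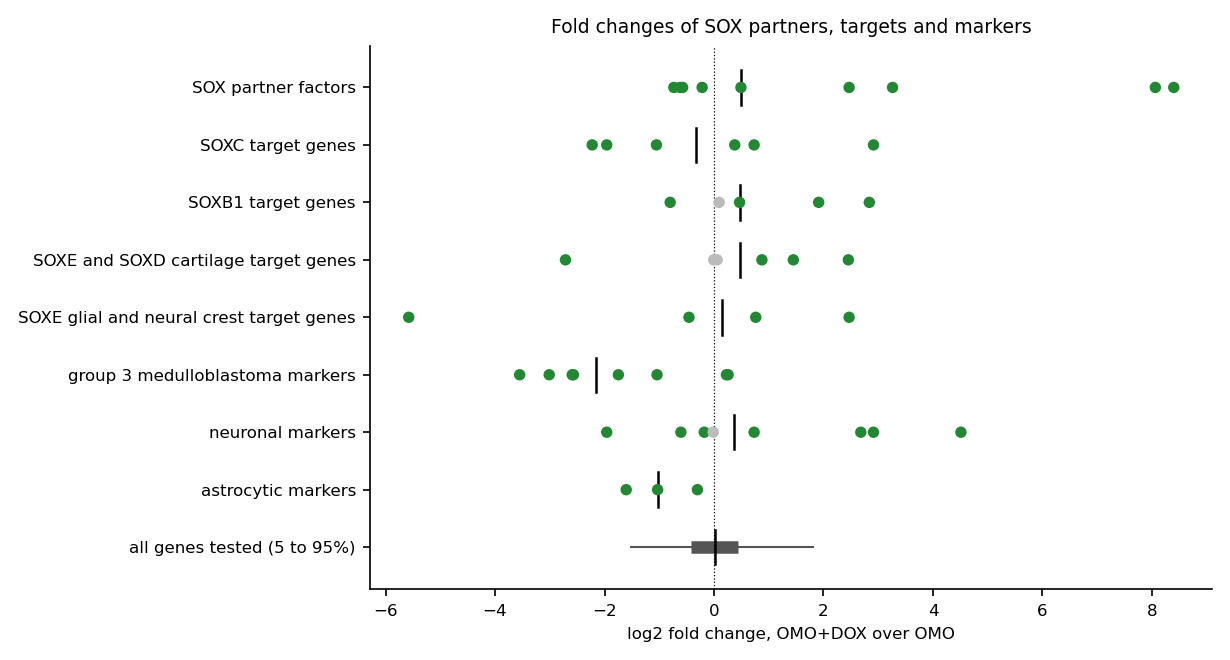
Log2 fold change (OMO+DOX over OMO) of the tested genes among SOX partners, SOX targets and cell state markers. Green points passed an edgeR adjusted p of 0.05, grey points did not, black lines are medians, and the bottom bar gives the middle of all genes tested (thick, the quartiles, and thin, the range from 5% to 95%). PAX6 and POU3F3, which passed the filter through 1 group only and are part of the drawn partner median, lie at 8.40 and 8.06, and the group 3 markers have the lowest median, -2.16.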

How the data were processed

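RNA-Seq of 4 OMO and 4 OMO+DOX replicates, which the study describes as independent biological replicates, was analysed. The authors trimmed reads with Trim Galore, aligned them to GRCh38 with STAR and counted genes with RSEM (versions and the strand setting are not given in the sources used here), and deposited RSEM expected counts per gene, not normalized, in which reads that match several genes are divided among them. Values were first rounded to integers. Those genes with over 1 CPM in at least 4 libraries were tested with edgeR 4.0.16 in R 4.3.3 (TMM, quasi-likelihood test, Benjamini-Hochberg adjustment, no covariates). The SE of a log2FC was derived from the quasi-likelihood F statistic. Symbols, exon lengths and overlaps came from GENCODE 29, which named 58561 of 60668 genes, and promoters from RefSeq. Pair ratios were tested with scipy 1.17.1 after adding 0.5 to counts.

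The members and lists were chosen with earlier results of these data known. Named are the members, tested SOX and SOX-locus noncoding genes, MYC, CAD, NCL, and from each list at most 2 called rises and 2 called falls without overlap between groups. CASC15, SOX2-OT, C11orf58, POLR2F, PINX1, POU3F2, NFIX, SYP, STMN2, GFAP, AQP4, SLC1A2, NEFL, MBP, PDGFRA, OLIG1 and genes without counts were named after their values were seen. Alternatives were DESeq2 1.42.0 and its size factors, library size only, edgeR's likelihood ratio test, a stricter or no filter, the replicate number as a block, longest transcript lengths, a pseudocount of 1 and each replicate left out. The fits were tested on simulated data. 1 gene of the glial and oligodendrocyte lists is not reported here.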

Additional observations from a re-analysis of the deposited data

Results flagged for a closer look

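In each group of 4 libraries, the highest and the lowest value of each SOX gene and pair ratio was compared with its nearest neighbour by Dixon's criterion. Of 52 groups examined, 5 held a library that stood apart, where chance marks about 1 in 20, or 2.6. SOX4 was 124.7 CPM in OMO replicate 2, against 110.3 to 112.3 CPM in the other untreated libraries. SOX8 was 10.04 CPM in OMO+DOX replicate 4, against 8.398 to 8.616 CPM in the others. SOX7 was 91.12 CPM in OMO replicate 2, against 92.68 to 92.94 CPM. The log2 ratio of SOX12 to SOX4 was 1.081 in OMO+DOX replicate 4, against 0.9336 to 0.9427. SOX2 stood at 0.01955 CPM in OMO+DOX replicate 3, which is 1 read where the other treated libraries had none. All of these lay on the same side of the other group as the libraries beside them, except SOX2, whose counts overlapped between the groups.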

How the results depend on the processing

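No alternative reversed the direction of a SOX gene or a pair ratio, and among the tested SOX genes only SOX6 lost its call, in the 4 fits without OMO replicate 2 or OMO+DOX replicate 1, 2 or 3. Its log2FC ranged from 0.20 to 0.41 with a replicate left out. Scaling by library size only moved the median log2FC of all genes to 0.14, SOX6 to 0.45 and SOX12 to -0.68. It also moved the untreated summed level to 53.6 CPM per kb for SOXC and 76.8 CPM per kb for all 10 members. Without a filter on low counts, where 41.3% of all 36881 genes changed, 5 SOX members were higher and 2 other SOX genes lower. In that fit 6 astrocytic, 4 melanocytic and 4 blood, vessel and fibroblast markers changed. The blood, vessel and fibroblast markers called numbered 2 with library size only and 1 to 2 with a replicate left out. The study's thresholds called 2097 genes without a filter (1328 higher, 769 lower) and 562 with over 1 CPM required in more than 4 libraries (313 higher, 249 lower), a filter that drops genes absent from 1 group and left 1 noncoding gene at SOX loci. With longest transcripts as lengths, the SOXD sum was 1.42 CPM per kb in OMO and 1.71 in OMO+DOX, of which SOX5 made up 10.5% and 6.30% and SOX6 89.5% and 93.7%.

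With the replicate number as a replicate block, 11805 genes changed at an adjusted p below 0.05, 11553 of them shared with the fit without it, and SOX6 had a log2FC of 0.34. Whether the numbers pair the libraries is not given in the sources used here. Deviations of same-numbered libraries correlated between -0.24 and 0.31, with a mean of 0.11 beside -0.04 for other pairs. In these values 2 libraries were closest to their own number, and so few pairs cannot decide the question. The low counts of SOX2, SOX3, SOX5 and SOX10 limit what can be said of them.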
